A study of Mus musculus with 12 samples.

Results

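The colony-stimulating factors and their receptors were followed in 12 arrays of mouse uterine cells. The members were taken by gene symbol, as 4 ligands (Csf1, Csf2, Csf3 and Il34) and 4 receptor chains (Csf1r, Csf2ra, Csf2rb and Csf3r). Each of the 8 symbols was found on exactly 1 probe set that carried no other symbol, which made 8 of the 23410 probe sets with a gene symbol. Uterine epithelium and stroma had been isolated from CD-1 mice on day 4 of pseudopregnancy and cultured together, the epithelial sheets on matrigel-coated inserts and the stromal cells on cover slips. After a night in medium with 1% charcoal-stripped serum the co-cultures received estradiol (E2) or its ethanol vehicle for 2 days, and each layer was then profiled on its own. The 4 groups of 3 arrays were the epithelial layer with 10 nM E2, the epithelial layer with 0.01% ethanol, the stromal layer with 10 nM E2 and the stromal layer with 0.01% ethanol. The labels give neither the genotype nor the age of the mice, and do not say if replicate arrays were separate cultures or mice.

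Macrophage colony-stimulating factor (Csf1) and interleukin-34 (Il34) are the ligands of the receptor tyrosine kinase Csf1r, on which macrophages depend for survival. Granulocyte-macrophage colony-stimulating factor (Csf2) binds the alpha chain Csf2ra, which pairs with the common beta chain Csf2rb, and granulocyte colony-stimulating factor (Csf3) binds its own receptor Csf3r. In the mouse uterus, Csf1 and Csf2 are known as products of the epithelium that act on the macrophages and dendritic cells of the stroma, and their synthesis is under the control of ovarian steroids.

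The promoters of Csf1 and Csf2 are shown because these ligands had the largest decreases under E2 among the members in the epithelial layer. They are printed 5′ to 3′ on the gene's strand from RefSeq (GRCm38.p6), from 250 bases before the annotated start to 50 bases after it. The capitals mark a match to the kappaB consensus, the binding motif of NF-kappaB. The Csf1 window lies at chr3:107760420-107760719 and the Csf2 window at chr11:54249850-54250149, both on the minus strand.
Csf1: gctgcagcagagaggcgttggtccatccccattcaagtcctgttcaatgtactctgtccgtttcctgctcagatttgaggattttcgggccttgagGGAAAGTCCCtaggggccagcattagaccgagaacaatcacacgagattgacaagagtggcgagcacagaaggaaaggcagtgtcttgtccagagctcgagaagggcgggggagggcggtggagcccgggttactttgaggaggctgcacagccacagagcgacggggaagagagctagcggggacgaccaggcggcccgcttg
Csf2: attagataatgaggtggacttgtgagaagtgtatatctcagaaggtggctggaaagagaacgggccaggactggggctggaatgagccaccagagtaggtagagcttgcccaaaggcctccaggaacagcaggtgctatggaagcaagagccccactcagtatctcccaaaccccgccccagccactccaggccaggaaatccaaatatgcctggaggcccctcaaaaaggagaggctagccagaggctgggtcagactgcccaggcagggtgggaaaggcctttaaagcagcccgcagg
Both strands were also searched for AP-1 (TGANTCA), the full estrogen response element, a palindrome of GGTCA units, and the single AGGTCA unit, which a full element can hold too. The Csf1 window held 1 kappaB match, at position -154 from the annotated start and on the reverse strand, and none of the other motifs. None of the 4 motifs was found in the Csf2 window. Among 32851 RefSeq promoter windows of the same length, 4.51% held the kappaB consensus, 7.81% the AP-1 motif, 0.07% the full estrogen response element and 16.3% the single unit. A match is a string of letters and was not tested as a binding site, and the annotated start need not be the one used in these cells.

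Values are the authors' log2 signals, n is 3 arrays a group, ± after a mean is the SD, and ± after a difference is the standard error from limma. A member was called when its p, adjusted by Benjamini-Hochberg over all 23410 probe sets, was under 0.05. Counts of list genes at an unadjusted limma p under 0.05 are also given for E2 against vehicle. They stand without the share of all probe sets at that p and so have no baseline. The median over these probe sets lay between 7.38 and 7.43 on every array, and whether a value stood above background was not tested. Levels of different genes are not set against each other. Of the markers of each layer, all 13 measured epithelial ones were higher in the epithelial arrays than in the stromal arrays under vehicle. Their mean per array was 9.83, 10.06 and 10.14 in the epithelial E2 arrays and 10.98, 11.58 and 9.93 in the epithelial vehicle arrays, against 7.0 to 7.14 and 6.62 to 6.89 in the stromal E2 and stromal vehicle arrays. Epithelial vehicle replicate 3 thus stood apart from its group and within the range of the epithelial E2 arrays. The means of 12 stromal markers were 10.75 to 10.79 in the epithelial E2 arrays and 10.22, 10.02 and 10.87 in the epithelial vehicle arrays. The stromal E2 and vehicle arrays had 10.96 to 11.17 and 11.01 to 11.23. Of the 12 markers, 3 were lower in the epithelial layer under E2, with a median difference of -0.16, beside 9.18% of all probe sets. Under vehicle 7 were lower there, with a median of -0.82, beside 14.1% of all probe sets.

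**Figure D1:**
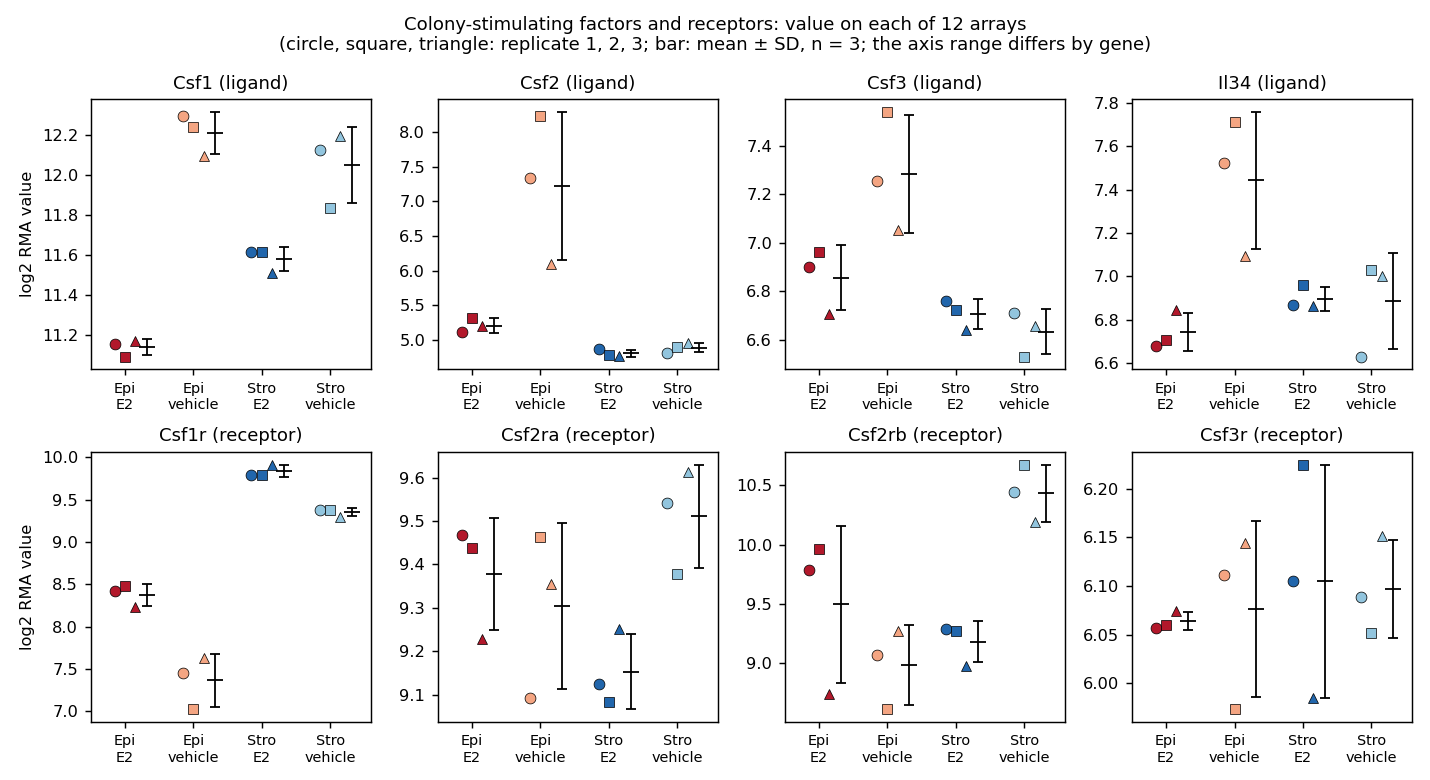
Log2 RMA value of each member (y axis, a range of its own in each panel) on the 12 arrays, by layer and treatment (x axis), with a symbol for each replicate and a bar for the mean ± SD (n = 3). Csf1 in the epithelial layer lay at 11.09 to 11.17 under E2 and at 12.09 to 12.29 under vehicle, while Csf3r stayed between 5.97 and 6.22 on all arrays.

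E2 lowered ligands in the epithelial layer and raised 1 receptor. Of the 4 ligands 3 fell, 0 rose and 1 did not pass, with a median difference of -0.88, and of the 4 receptors 1 rose, 0 fell and 3 did not pass, with a median of 0.29. The median over all probe sets tested was 0.03. Beside the ligands, 12 of the 13 epithelial markers measured lower with E2, with a median of -0.74, of which 1 (Cldn4) was called and 8 had an unadjusted p under 0.05. In total 4 of 8 members were called, while 2.9% of all probe sets were called in this comparison, 1.77% higher and 1.12% lower. The 8 genes were chosen with earlier results of these data known, so this share describes them and tests nothing. Fitted on the 6 epithelial arrays alone, where 0.209% of all probe sets were called, Csf1 was the 1 member called, and Csf2, Il34 and Csf1r had an adjusted p of 0.205, 0.231 and 0.0914. Without vehicle replicate 3, where 6.98% of all probe sets were called, all 4 stayed called, at -1.13 for Csf1, -2.58 for Csf2, -0.87 for Il34 and 1.14 for Csf1r.

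Csf1, the macrophage growth factor, measured 11.16, 11.09 and 11.17 in the epithelial E2 arrays, against 12.29, 12.24 and 12.09 in the epithelial vehicle arrays. The groups did not overlap and the spread within each was small beside the gap between them. Csf1 fell 2.10-fold (-1.07 ± 0.10, adjusted p = 0.000378). This difference kept its call without any 1 of the 12 arrays, at -1.13 to -1.02. Epithelial vehicle replicate 3, whose epithelial markers resembled those of the E2 arrays, measured 12.09 for Csf1. This was the lowest value of its group and above all epithelial E2 arrays. With the epithelial marker mean as a covariate, chosen after seeing the data, the Csf1 difference was -0.99 ± 0.13 and kept its call (adjusted p = 0.00553). With the macrophage marker mean it was -1.05 ± 0.15, also called (adjusted p = 0.0186). These fits do not measure the part of the epithelial content in the Csf1 difference, which was not tested.

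Csf2, the granulocyte-macrophage factor, measured 5.11, 5.32 and 5.20 in the epithelial E2 arrays, against 7.34, 8.23 and 6.10 in the epithelial vehicle arrays. All E2 arrays were below all vehicle arrays, but the vehicle arrays were spread over more than 2 log2 units. Their order was that of the epithelial marker means, 10.98, 11.58 and 9.93 for the same arrays. Csf2 fell 4.04-fold (-2.02 ± 0.38, adjusted p = 0.0167), with means of 5.21 ± 0.10 with E2 and 7.22 ± 1.07 under vehicle, and the difference ranged from -2.58 to -1.51 when 1 array was left out. The call was lost without epithelial E2 replicate 1, epithelial E2 replicate 2 or epithelial vehicle replicate 1 (adjusted p = 0.0769, 0.0670 and 0.0588). With the epithelial marker mean as a covariate, chosen after seeing the data, the difference was -1.03 ± 0.16 (adjusted p = 0.0138). With the mean of macrophage markers in its place it was -1.59 ± 0.53 and the call was lost (adjusted p = 0.331).

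Il34, the other ligand of Csf1r, measured 6.68, 6.71 and 6.85 in the epithelial E2 arrays, against 7.52, 7.71 and 7.10 in the epithelial vehicle arrays. Here too vehicle replicate 3 was the lowest of its group and nearest to the E2 arrays. Il34 fell 1.62-fold (-0.70 ± 0.15, adjusted p = 0.0336). The call was lost without 8 of the 12 arrays, 4 epithelial and 4 stromal, with an adjusted p between 0.0525 and 0.133. It was lost as well with the epithelial marker mean as a covariate (-0.42 ± 0.15, adjusted p = 0.333) or the macrophage marker mean (-0.46 ± 0.20, adjusted p = 0.446).

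Csf3, the granulocyte factor, measured 6.90, 6.96 and 6.70 in the epithelial E2 arrays, against 7.25, 7.54 and 7.05 in the epithelial vehicle arrays. Although the ranges did not overlap, the difference of -0.43 ± 0.12 did not pass (adjusted p = 0.0903). Without vehicle replicate 3 it was -0.54 and passed (adjusted p = 0.0208). With the epithelial marker mean as a covariate it was -0.22 ± 0.13 (adjusted p = 0.713).

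Csf1r, the receptor of Csf1 and Il34, measured 8.42, 8.48 and 8.23 in the epithelial E2 arrays, against 7.46, 7.02 and 7.63 in the epithelial vehicle arrays. The groups lay apart, the opposite way from the ligands. Csf1r rose 2.01-fold (1.01 ± 0.14, adjusted p = 0.00317), and it kept the call without any 1 array, at 0.83 to 1.14. In whole cultures, more cells that carry a transcript and more of it per cell cannot be told apart. Of 17 macrophage markers measured beside it, 0 were called by limma and 14 measured higher with E2, with a median difference of 0.29. At an unadjusted p under 0.05, 4 of the 17 differed, a count without the share of all probe sets at that p beside it. Their mean per array was 8.57, 8.61 and 8.16 in the epithelial E2 arrays and 8.14, 8.01 and 8.21 in the epithelial vehicle arrays, so that E2 replicate 3 lay among the vehicle arrays by its markers but not by Csf1r. The summed signal of the 17 markers spanned 13.41 to 14.01 with E2 and 13.20 to 13.61 under vehicle on the log2 scale. All 17 are on the array, and 3 of them measured lower with E2. The macrophage surface gene Adgre1, picked after its values were seen, averaged 7.55 ± 0.61 with E2 and 6.90 ± 0.13 under vehicle. Its groups overlapped, with E2 replicate 3 at 6.86 and the vehicle arrays at 6.81 to 7.05. With the macrophage marker mean as a covariate, also chosen after seeing the data, the Csf1r difference was 0.75 ± 0.17 and lost its call (adjusted p = 0.122). With the epithelial marker mean in its place it was 0.73 ± 0.12 and kept the call (adjusted p = 0.0207). Of the 12 stromal markers 0 were called with E2 in the epithelial layer, 8 measured higher and 4 lower, with a median of 0.17. The part of macrophage or stromal content in this Csf1r difference was not tested.

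The other receptor chains did not pass in the epithelial layer. Csf2rb, the signalling chain shared with the receptors of interleukins 3 and 5, measured 9.78, 9.96 and 8.74 in the epithelial E2 arrays and 9.06, 8.61 and 9.27 in the epithelial vehicle arrays (0.51 ± 0.28, adjusted p = 0.421). Its E2 replicate 3 was low, as were the macrophage markers of that array. Without that array the difference was 0.89 (adjusted p = 0.0269), and with the macrophage marker mean as a covariate it was -0.36 ± 0.19 (adjusted p = 0.522). Csf2ra, the ligand-binding chain for Csf2, measured 9.47, 9.44 and 9.23 with E2 and 9.09, 9.46 and 9.36 under vehicle, and the groups overlapped (0.07 ± 0.11, 95% interval -0.18 to 0.32). Csf3r measured 6.06, 6.06 and 6.07 with E2 and 6.11, 5.97 and 6.14 under vehicle, a difference of -0.01 ± 0.08 with an interval from -0.20 to 0.17.

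**Figure D2:**
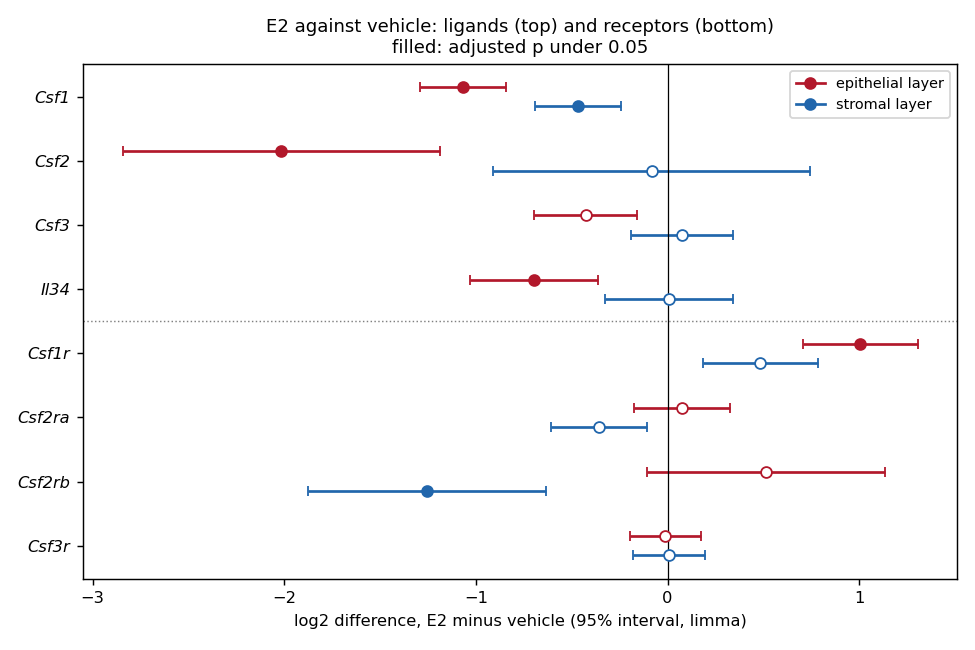
Log2 difference between E2 and vehicle (x axis, with the 95% interval from limma) for each member (y axis), in the epithelial layer and the stromal layer. Filled points passed at an adjusted p under 0.05: Csf1, Csf2, Il34 and Csf1r in the epithelial layer, and Csf1 and Csf2rb in the stromal layer.

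In the stromal layer E2 lowered 1 ligand and 1 receptor chain. Of the 4 ligands Csf1 alone fell and 3 did not pass (median -0.04), and of the 4 receptors Csf2rb alone fell and 3 did not pass (median -0.17). The 2 of 8 members called stand beside 3.5% of all probe sets called, 1.52% higher and 1.98% lower, and the median of all was 0.03. Fitted on the 6 stromal arrays alone, 4 members were called, Csf1r and Csf2ra besides Csf1 and Csf2rb, and 9.15% of all probe sets. The stromal arrays spread less than the epithelial ones, with a median SD per probe set of 0.08 with E2 and 0.09 under vehicle, against 0.16 and 0.19 in the epithelial layer.

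Csf1 in the stromal layer measured 11.62, 11.61 and 11.51 with E2, against 12.12, 11.83 and 12.19 under vehicle. No stromal E2 array reached the lowest vehicle array. The decrease of 0.47 ± 0.10 on the log2 scale was 1.38-fold (difference -0.47, adjusted p = 0.0273). It lost its call without 5 of the 6 stromal arrays, all but vehicle replicate 2 (adjusted p from 0.0887 to 0.127), at -0.49 to -0.40. With the macrophage marker mean as a covariate it was -0.48 ± 0.12 (adjusted p = 0.0584).

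Csf2rb measured 9.29, 9.27 and 8.98 in the stromal E2 arrays, against 10.44, 10.67 and 10.19 in the stromal vehicle arrays. The gap between the groups exceeded the range within either. Csf2rb fell 2.39-fold (-1.25 ± 0.28, adjusted p = 0.0328), and in no fit without 1 of the 6 stromal arrays did it keep the call, nor without epithelial vehicle replicate 1 (adjusted p from 0.0502 to 0.128). With all probe sets of the table tested, the adjusted p was 0.0635. On the stromal arrays alone the same difference had an adjusted p of 0.00137. Csf2rb2, its mouse-specific duplicate that serves the interleukin 3 receptor, measured 8.38, 8.15 and 7.95 with E2 and 9.25, 9.37 and 8.97 under vehicle. Its difference of -1.04 ± 0.27 did not pass (adjusted p = 0.0647). The genes are close paralogs and probes shared between them were not checked, so the probe sets cannot be taken as independent.

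Csf1r measured 9.80, 9.79 and 9.92 in the stromal E2 arrays, against 9.38, 9.37 and 9.30 in the stromal vehicle arrays. The ranges did not overlap, and the difference of 0.48 ± 0.14 did not pass in the fit of all 12 arrays (adjusted p = 0.0930) but did on the stromal arrays alone (adjusted p = 0.00368). Csf2ra measured 9.12, 9.08 and 9.25 with E2, against 9.54, 9.38 and 9.61 under vehicle. Its difference of -0.36 ± 0.11 did not pass either (adjusted p = 0.147), and on the stromal arrays alone it did (adjusted p = 0.0347). The macrophage markers had 0 of 17 called by limma (3 at an unadjusted p under 0.05), 8 measuring higher and 9 lower, with a median of -0.03. Their mean per array was 8.64 to 8.76 with E2 and 8.83 to 8.91 under vehicle, and their summed signal spanned 13.73 to 13.86 and 13.79 to 14.00 on the log2 scale. With E2, Csf1r measured higher and this marker mean measured lower. The part of the macrophage content in the Csf1r difference was not tested. With that mean as a covariate Csf1r differed by 0.61 ± 0.13 (adjusted p = 0.0360) and Csf2rb by -0.83 ± 0.15 (adjusted p = 0.0133).

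The remaining ligands and Csf3r showed no difference past the threshold in stroma. Csf2 measured 4.87, 4.79 and 4.77 with E2 and 4.82, 4.90 and 4.95 under vehicle. Csf3 measured 6.76, 6.72 and 6.64 with E2 and 6.71, 6.53 and 6.66 under vehicle. Il34 measured 6.87, 6.96 and 6.86 with E2 and 6.63, 7.03 and 7.0 under vehicle, and Csf3r measured 6.11, 6.22 and 5.98 with E2 and 6.09, 6.05 and 6.15 under vehicle. In each of these 4 genes the groups overlapped, with differences between -0.08 and 0.07.

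Whether the E2 effect differed between the layers was tested as the epithelial difference minus the stromal one. By limma 0 of 8 members were called, where 0.91% of all probe sets were, 0.641% higher and 0.269% lower. At an unadjusted p under 0.05 there were 7 of 8, all but Csf3r, beside 10.5% of all probe sets. The 4 ligands measured -0.60 ± 0.14 (Csf1, adjusted p = 0.0925), -1.93 ± 0.53 (Csf2, 0.146), -0.50 ± 0.17 (Csf3, 0.272) and -0.71 ± 0.21 (Il34, 0.195), all further down in the epithelial layer. Among the receptors Csf2rb measured 1.77 ± 0.40 (adjusted p = 0.0722), Csf1r 0.52 ± 0.19 and Csf2ra 0.43 ± 0.16. Without epithelial vehicle replicate 3, 4 members were called, namely Csf1, Csf2, Il34 and Csf2rb, beside 3.1% of all probe sets. Without epithelial E2 replicate 3 Csf2rb was the 1 member called, beside 3.04% of all probe sets. With all 12 arrays weighted by their quality, 7 members were called, all but Csf3r, and 19.2% of all probe sets.

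The layers were also compared within each treatment. Under E2, 2 of 8 members were called, both lower in the epithelial layer, beside 13.6% of all probe sets called, 4.43% higher and 9.18% lower. Csf1r, at 8.23 to 8.48 in the epithelial E2 arrays and 9.79 to 9.92 in the stromal E2 arrays, differed by -1.46 ± 0.14 (adjusted p = 4.84e-05). Csf1, at 11.09 to 11.17 in the epithelial E2 arrays and 11.51 to 11.62 in the stromal E2 arrays, differed by -0.44 ± 0.10 (adjusted p = 0.0141), a call lost without epithelial E2 replicate 2, stromal E2 replicate 1 or stromal E2 replicate 2 (adjusted p = 0.0519, 0.0579 and 0.0607). The other 6 members did not pass, with differences between -0.15 (Il34) and 0.40 (Csf2). Of the 17 macrophage markers 5 were lower in the epithelial layer under E2 and 1 was higher.

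Under vehicle, ligands and receptors differed in opposite directions between the layers. Of the 4 ligands 3 were higher in the epithelial layer and 1 did not pass, and of the 4 receptors 2 were lower and 2 did not pass, 5 of 8 members in all. The background was high, with 21.4% of all probe sets called, 7.27% higher and 14.1% lower. Csf2 lay at 6.10 to 8.23 in epithelium, against 4.82 to 4.95 in stroma (2.33 ± 0.38, adjusted p = 0.00127). Csf3 differed by 0.65 ± 0.12 (adjusted p = 0.00308) and Il34 by 0.56 ± 0.15 (adjusted p = 0.0227), and the call of Il34 was lost without epithelial vehicle replicate 1 or stromal vehicle replicate 1 (adjusted p = 0.0749 and 0.0939). Csf1 overlapped, at 12.09 to 12.29 in epithelium and 11.83 to 12.19 in stroma (0.16 ± 0.10, adjusted p = 0.298).

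Among the receptors under vehicle, Csf1r measured 7.02 to 7.63 in epithelium and 9.30 to 9.38 in stroma, a difference of -1.98 ± 0.14 (adjusted p = 6.24e-06). Csf2rb measured 8.61 to 9.27 in epithelium and 10.19 to 10.67 in stroma (-1.45 ± 0.28, adjusted p = 0.00383). Macrophage markers went the same way, with a median of -0.76. Of the 17, 11 were lower in the epithelial layer and 1, the endotoxin receptor Cd14, was higher. Of all probe sets, 14.1% were lower and 7.27% higher. Adgre1 differed by -1.99 ± 0.24 and the complement gene C1qc by -1.57 ± 0.15. The part of the macrophage content in the receptor differences was not tested.

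**Figure D3:**
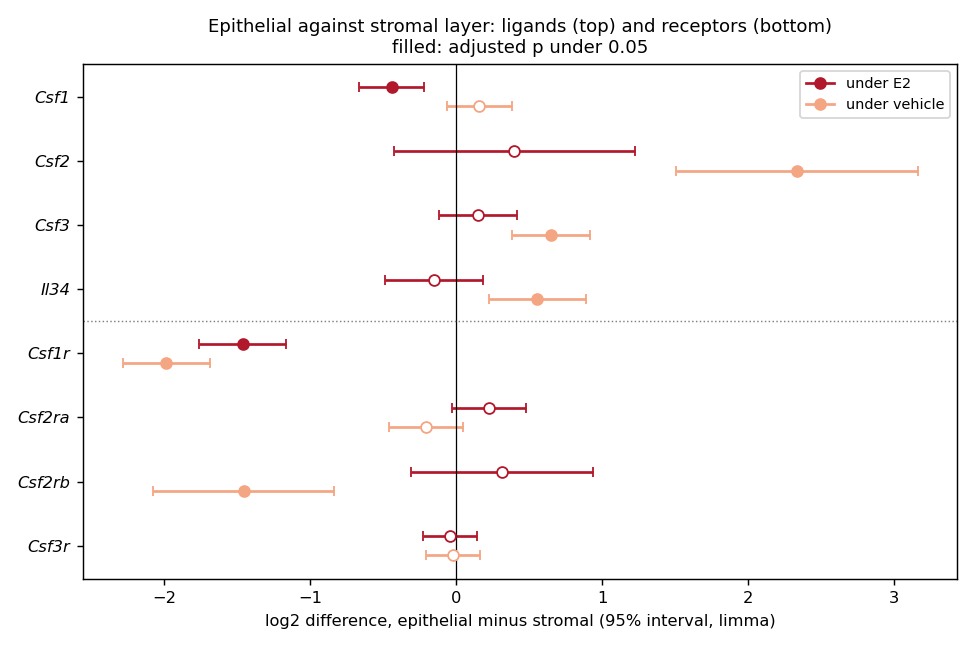
Log2 difference between the epithelial and stromal layers (x axis, with the 95% interval from limma) for each member (y axis), under E2 and under vehicle. Filled points passed at an adjusted p under 0.05: Csf1r under either treatment, Csf1 under E2, and Csf2, Csf3, Il34 and Csf2rb under vehicle.

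The order of the 4 groups was not the same for any pair of the members that were called. Csf1 was highest in the epithelial vehicle arrays, then in the stromal vehicle, stromal E2 and epithelial E2 arrays, and the first pair of neighbours in that order overlapped while the others did not. Csf2 ran from epithelial vehicle through epithelial E2 and stromal vehicle to stromal E2, and the last pair overlapped. Il34 was highest in the epithelial vehicle arrays, and the other 3 groups overlapped with their neighbours. Csf1r ran from stromal E2 through stromal vehicle and epithelial E2 to epithelial vehicle, with no overlap between any neighbours. Csf2rb was highest in the stromal vehicle arrays, above the epithelial E2, stromal E2 and epithelial vehicle arrays, which overlapped with their neighbours. Csf3 ran from epithelial vehicle through epithelial E2 and stromal E2 to stromal vehicle with the last pairs overlapping, and every pair of neighbours overlapped in Csf2ra and Csf3r.

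**Figure D4:**
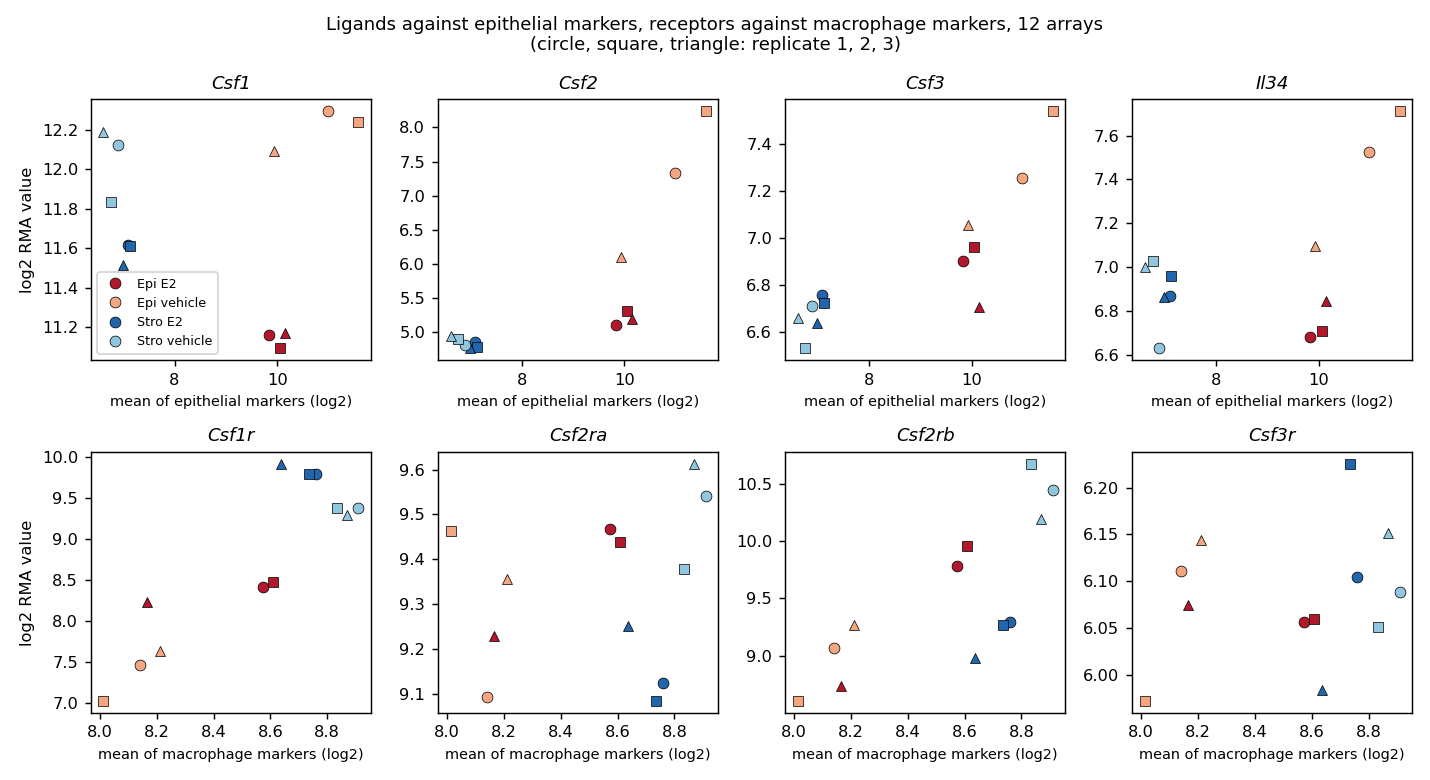
Value of each member (y axis, log2 RMA) against the mean of 13 epithelial markers (ligands, top) or of 17 macrophage markers (receptors, bottom) on the x axis (log2), 1 point an array. In the epithelial vehicle arrays Csf2 had the order of the epithelial markers (7.34, 8.23 and 6.10 at marker means of 10.98, 11.58 and 9.93). Csf3 and Il34 had that order too, and Csf1 lay between 12.09 and 12.29. In the epithelial E2 arrays Csf2 had another order than the markers (5.11, 5.32 and 5.20 at 9.83, 10.06 and 10.14).

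The 3 genes most like each called member were taken by Pearson's r over the 12 arrays among 17302 named genes. These arrays share their layer and treatment groups, so a high r also follows from the groups alone. For Csf2 they were Gabrp (r = 0.99), Slc9a2 (0.98) and Nbeal2 (0.98), and Gabrp averaged 6.88 in the epithelial E2 arrays and 11.09 ± 1.58 in the epithelial vehicle arrays, against 6.10 and 6.02 in the stromal E2 and vehicle arrays. Csf3 was nearest to Clca3a1 (0.98), Plekhs1 (0.98) and Vav2 (0.97), and Il34 to Ano1 (0.95), Cyba (0.93) and B4galt3 (0.93). Csf1 was nearest to Il17rd (0.93), Ap5z1 (0.93) and Ddx55 (0.91). Csf1r was nearest to Gnb5 (0.99), Drp2 (0.99) and Rtl3 (0.99). Rtl3 averaged 7.66 in the epithelial E2 and 6.28 in the epithelial vehicle arrays, against 10.30 in the stromal E2 and 9.13 in the stromal vehicle arrays. The nearest gene to Csf2rb was its paralog Csf2rb2 (0.97), followed by Mex3c (0.97) and Snx9 (0.95).

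Genes that act before and after these receptors were counted in lists, which like the members were chosen with earlier results known. Their counts describe the lists and test nothing. Of all probe sets, 1.77% were called higher and 1.12% lower with E2 in the epithelial layer. In the stromal layer 1.52% were called higher and 1.98% lower. These shares stand beside the E2 counts of all lists. Of 9 measured genes for cytokines that induce the factors and for NF-kappaB proteins, 2 fell in the epithelial layer, 0 rose and 7 did not pass (median -0.29), and 7 fell in the stromal layer, 0 rose and 2 did not pass (median -0.97). Tnf, a cytokine that induces Csf1 and Csf2, fell in the epithelial layer (-1.47 ± 0.31, adjusted p = 0.0306) and in the stromal layer (-2.58 ± 0.31, adjusted p = 0.000971). The epithelial call of Tnf was lost without 7 of the 12 arrays. Nfkbie, an inhibitor and target of NF-kappaB, fell by 0.69 ± 0.08 in the epithelial layer (adjusted p = 0.00176) and by 1.17 ± 0.08 in the stromal layer (adjusted p = 3.85e-05). In stroma the interleukin genes Il1a (-3.10 ± 0.28) and Il1b (-1.78 ± 0.32), the NF-kappaB subunit Nfkb2 (-0.75 ± 0.09) and the inhibitor Nfkbia (-0.97 ± 0.16) fell too. Between the layers, Il1a (3.73 ± 0.28), Nfkb2 (0.43 ± 0.09) and Nfkbia (0.65 ± 0.16) were higher and Nfkbie (-0.37 ± 0.08) lower in epithelium under E2. Under vehicle Il1a was higher there (1.46 ± 0.28), and Nfkbie (-0.84 ± 0.08), Il1b (-1.62 ± 0.32), Nfkbia (-0.76 ± 0.16) and the subunit Rela (-0.28 ± 0.08) were lower. Leaving out 1 array ended the calls of Rela (5 of the 12 arrays), of Nfkbia under E2 (3) and of Nfkbie under E2 (1).

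Of 20 measured signal transducers and feedback genes of the receptors, 1 rose and 1 fell in the epithelial layer (median 0.18), and 0 rose and 2 fell in the stromal layer (median -0.13). Cish, a feedback inhibitor induced by STAT5, fell by 0.71 ± 0.11 in either layer (adjusted p = 0.00581 in the epithelial layer and 0.00362 in the stromal layer). Its relative Socs2 rose in the epithelial layer, with a mean of 11.31 ± 0.11 with E2 and 9.74 ± 0.12 under vehicle (1.58 ± 0.12, adjusted p = 0.000103), and in the stromal layer measured 0.38 ± 0.12 higher without passing (adjusted p = 0.133). Jak2, the kinase of the Csf2 and Csf3 receptors, fell by 0.44 ± 0.08 in stroma (adjusted p = 0.00919), a call lost without stromal E2 replicate 1 or stromal vehicle replicate 3. Under vehicle 11 of the 20 were lower in the epithelial than in the stromal layer and 1 was higher, beside 14.1% and 7.27% of all probe sets. The 6 with the smallest p were all lower, namely Socs2 (-1.52 ± 0.12), Socs3 (-1.17 ± 0.18), Inpp5d (-0.65 ± 0.13), Gab2 (-0.79 ± 0.17), Jak1 (-0.58 ± 0.13) and Tyrobp (-1.39 ± 0.34). Under E2, Socs3 (-0.81 ± 0.18) and Gab2 (-0.78 ± 0.17) were lower and Jak2 (0.40 ± 0.08) higher.

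**Figure D5:**
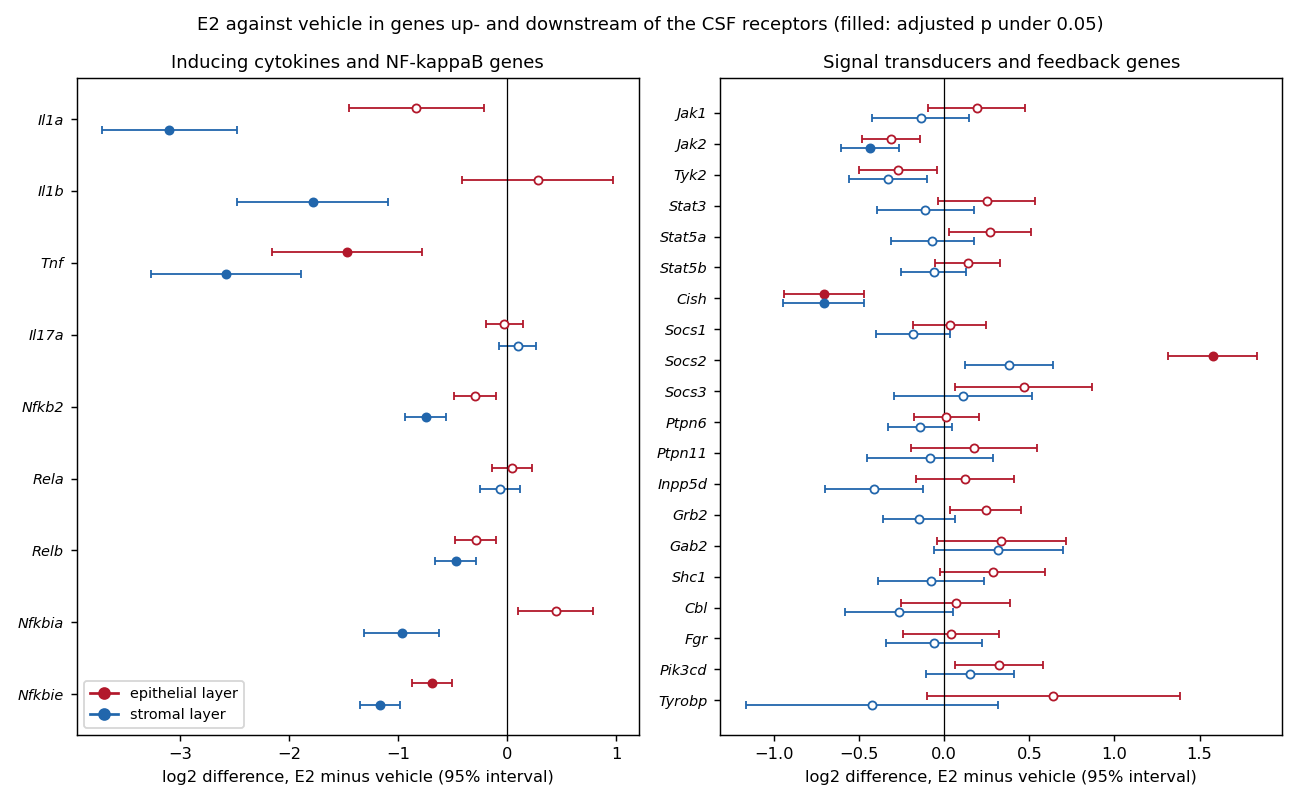
Log2 difference between E2 and vehicle (x axis, with the 95% interval from limma) in 9 genes of inducing cytokines and NF-kappaB (left) and 20 signal transducers and feedback genes (right), by layer. Filled points passed at an adjusted p under 0.05, and in stroma Il1a, Tnf and Il1b lay furthest left, at -3.10, -2.58 and -1.78.

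Of 9 measured myeloid transcription factors, 0 were called by limma with E2 in the epithelial layer and 4 differed at an unadjusted p under 0.05, while in stroma Runx1 alone fell (-0.67 ± 0.11, adjusted p = 0.00498). Under vehicle 5 of the 9 were lower in the epithelial layer, beside 14.1% of all probe sets. They were Spi1 (-1.68 ± 0.30), the master factor of macrophages, Irf8 (-0.77 ± 0.10), Mitf (-1.89 ± 0.31), Runx1 (-0.47 ± 0.11) and Cebpa (-0.49 ± 0.13). Under E2 3 were lower there, beside 9.18% of all probe sets, namely Cebpa (-0.89 ± 0.13), Mitf (-1.75 ± 0.31) and Irf8 (-0.48 ± 0.10). Among 5 relatives of the beta chain, 0 were called by limma with E2 in either layer and 1 in each differed at an unadjusted p under 0.05, and under vehicle Csf2rb2 was lower in the epithelial layer (-1.54 ± 0.27, adjusted p = 0.00211). Their cytokines Il3 and Il5 lay between 4.38 and 5.37 on all arrays. Of the other proteins that bind interleukin-34, the phosphatase Ptprz1 fell in stroma, at 8.05, 8.38 and 7.74 with E2 and 10.68, 9.73 and 10.50 under vehicle (-2.24 ± 0.37, adjusted p = 0.00580), and was higher in the epithelial than in the stromal layer under E2 (2.63 ± 0.37). The syndecan Sdc1 was not called in any of the 5 comparisons.

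Between E2 and vehicle, markers of other blood cells showed few differences, and endothelial markers were counted beside them. Of 9 neutrophil markers, cells that carry Csf3r, 0 were called with E2 in either layer by limma, and their mean per array was 5.61 to 5.98 with E2 and 5.50 to 5.79 under vehicle in the epithelial layer, against 5.50 to 5.63 and 5.45 to 5.54 in stroma. At an unadjusted p under 0.05, 0 of the 9 differed in either layer. Of 7 dendritic cell markers 0 were called by limma with E2 in the epithelial layer, where 2 differed at an unadjusted p under 0.05, and 1 fell in the stromal layer, Cd74 (-1.86 ± 0.40). Of 7 lymphocyte and NK cell markers 0 were called with E2 in either layer and 0 differed at an unadjusted p under 0.05, and of 5 endothelial markers Kdr rose in the epithelial layer (1.33 ± 0.26) and Cdh5 (-1.50 ± 0.26) fell in stroma.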

How the data were processed

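Gene expression was measured on 12 Affymetrix Mouse Gene 1.0 ST arrays, 3 for each of 4 groups. The values are log2 signals that the authors deposited as one table of 35556 probe sets. RMA is named in the submitters' processing notes, with its version and settings not stated there. No depth applies to arrays, and their number limits the precision. Probe sets were named from the platform annotation, 21789 with 1 symbol, 1621 with several and the rest with none, and members with RefSeq symbols. In limma 3.58.1 (R 4.3.3) the 12 arrays were fitted with lmFit and eBayes, one mean per group, which gave 8 residual degrees of freedom and one shared spread. The 5 comparisons were E2 against vehicle in each layer, the difference of these, and epithelium against stroma under each treatment. The Benjamini-Hochberg adjustment ran over 23410 probe sets with a symbol, within each comparison. The labels do not say that the arrays of a group come from separate cultures, so p-values measure the spread between these arrays, which may be technical. Each array enters several comparisons, which are therefore not independent.

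The members and all gene lists were chosen with earlier results of these data known. The text names all 8 members, list genes past the threshold (at most 6 a list and comparison, by smallest p) and the 3 genes most like each called member. Marker genes are named as context and were picked after their values were seen. The alternatives tried were dropping low values, testing the whole table, median centring, quantile normalization, array weights, a robust prior with a variance trend, a replicate block, the arrays of the 2 groups alone, thresholds of 0.01 and 0.1, and leaving out each array. Marker means as covariates were added after seeing the data, in the E2 comparisons only. Of all pairs of arrays 0 held identical values. Same-numbered vehicle arrays of the layers had residual correlations of 0.17, 0.14 and 0.13. In the other comparisons same-numbered arrays had correlations between -0.42 and 0.27. With 3 arrays a group these values cannot show what a number marks, and the labels do not say it.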

Additional observations from a re-analysis of the deposited data

Results flagged for a closer look

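No member passed the test of a different E2 effect in the layers, but 4 genes of the lists did, as an epithelial minus a stromal difference between E2 and vehicle (limma, adjusted over 23410 probe sets). Socs2, a feedback inhibitor of cytokine receptors, had 1.20 ± 0.17 (adjusted p = 0.00932), with 1.58 in the epithelial and 0.38 in the stromal layer. Nfkbia, the inhibitor of NF-kappaB, had 1.41 ± 0.22 (adjusted p = 0.0146), and Il1a, a cytokine that induces colony-stimulating factors, had 2.27 ± 0.40 (adjusted p = 0.0249), and both fell in stroma and did not pass in the epithelial layer. The call of Il1a was lost without 7 of the 12 arrays (adjusted p up to 0.0802) and with all probe sets tested, and that of Nfkbia without stromal E2 replicate 1 or stromal E2 replicate 2 (adjusted p up to 0.0561). Krt7, an epithelial keratin, had -1.93 ± 0.39 (adjusted p = 0.0495), with -0.61 in the epithelial and 1.32 in the stromal layer. Its call was lost without 10 of the 12 arrays (adjusted p up to 0.143) and after median centring or quantile normalization, while that of Socs2 was kept without any 1 array.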

How the results depend on the processing

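Of 8 members, 4 were called for E2 in epithelium, 2 for E2 in stroma, 0 for the layer difference, 2 for epithelium against stroma under E2 and 5 under vehicle. In that order, 2.9%, 3.5%, 0.91%, 13.6% and 21.4% of all probe sets were called. Leaving out 1 array gave 2 to 5, 0 to 3, 0 to 4, 1 to 2 and 4 to 5. The shares of all probe sets then ran from 0.935% to 6.98%, 1.76% to 5.73%, 0.346% to 3.1%, 8.34% to 19.8% and 14.5% to 30.7%. For E2 in epithelium, the 6 arrays alone gave 1 (Csf1), a threshold of 0.01 gave 2 and the macrophage covariate 1 (Csf1), beside 0.209%, 0.897% and 0.431% of all probe sets. For E2 in stroma, all probe sets gave 1 (Csf1), array weights 4, the 6 arrays alone 4 and a threshold of 0.01 gave 0, beside 1.86%, 19.2%, 9.15% and 1.54%. The layer difference had 7 with array weights and 2 at a threshold of 0.1 (Csf1 and Csf2rb), beside 19.2% and 1.73%. Epithelium against stroma under E2 had 7 with array weights and 1 at a threshold of 0.01, beside 50.4% and 7.06%. Over the members' differences, 857 of 939 recomputed values stayed on the same side of the threshold, 45 lost and 37 gained the call. Most of the 40 differences were not called in the main fit and could not lose a call. These pooled counts therefore do not measure how stable the calls were. Of differences called in either fit, 0 reversed their direction. Some differences called in neither fit did change sign. For E2 in epithelium, Csf2rb measured 0.51 in the main fit and -0.36 with the macrophage covariate. With the replicate number as a block, fixed or random, 4, 2, 0, 2 and 5 members were called, the same numbers as without it. Beside them stood 2.86%, 3.72%, 0.97%, 14.2% and 22.3% of all probe sets with the fixed block. With the random block these shares were 2.9%, 3.54%, 1.15%, 14.7% and 22.9%. The fixed block took the epithelial call of Tnf. The causes of these changes were not tested. What an array number marks is not given by the labels, and the residual correlations do not settle it. With 3 arrays a group, a difference that did not pass is not shown to be absent, and signal over background was not measured.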
